A study of Mus musculus with 12 samples.

Results

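The TRAV9 family is a group of variable segments of the mouse T cell receptor alpha locus, and its use and pairing were described in T cells recovered from brain tissue. Its members are TRAV9-1, TRAV9-2, TRAV9-3 and TRAV9-4, taken as every productive alpha (TRA) contig whose V segment the deposited annotation names TRAV9, TRAV9D or TRAV9N with that number, so that the letter of the copy is dropped. They made up 633 of 6482 productive TRA contigs (9.77%), in 630 of 5834 cells with a productive TRA contig. The study sorted CD45+ immune cells from the meninges and the brain parenchyma of C57BL/6 mice and sequenced single-cell receptor libraries. The mice were 5xFADTg, which carry transgenes for mutant human amyloid precursor protein and presenilin, or NonTg, the same strain without them. There was 1 library each from 5xFADTg meninges and NonTg meninges, and there were 2 libraries each from 5xFADTg parenchyma and NonTg parenchyma. The labels tie no library to an animal, give no age and do not say whether animals were pooled. P-values therefore measure how far these libraries differ, which may be a technical matter. The gene expression libraries of the same sorts were not analysed here, so receptors are described by their sequence and not by the type of T cell that carried them.

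Each developing T cell cuts and joins 1 V and 1 J segment of the alpha locus, trims both ends and adds bases between them, and the joined stretch is the third complementarity-determining region (CDR3), which touches the peptide. The V segment itself encodes the first and second such loops, which mostly touch the MHC molecule. In the mouse locus a large stretch of V segments has been copied, and the letters D and N mark segments of the copies, so that a family such as TRAV9 lies scattered over the locus. Joining begins with V and J segments that lie close to each other and can be repeated with segments farther out, which replaces the earlier joint. The alpha chain works only with a beta chain (TRB), made from TRBV, TRBD and TRBJ segments, and T cells that share both chains by descent form a clone.

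In the GENCODE M21 annotation (mm10, chromosome 14, plus strand) the family has 11 segments. The nearest to the J segments is TRAV9-4 at chr14:53676141-53676630. Moving away from the J segments, it is followed by TRAV9-2 at chr14:53590857-53591514, TRAV9-1 at chr14:53488045-53488567 and TRAV9N-4 at chr14:53294341-53295030. The next of the family out from TRAV9N-4 is TRAV9N-3 at chr14:53231433-53232102. Much farther out lie TRAV9D-3 at chr14:52920443-52921112, TRAV9D-2 at chr14:52892186-52892618 and TRAV9D-1 at chr14:52792316-52792777. The J segments begin beyond all of them, with TRAJ61 at chr14:54155005-54155076, and end with TRAJ1 at chr14:54218814-54218842. The last 30 bases of the V segments are shown because their final 13, in capitals, are what each CDR3 can begin with. They run from the codon of the conserved cysteine, where the CDR3 starts, to the end of the segment. The pseudogene TRAV9N-1, which no contig was labelled with, is left out.
TRAV9-1 and TRAV9D-1: actcggctgtgtacttcTGTGCTGTGAGCG
TRAV9-2: actctgctgtgtacttcTGTGTTTTGAGCG
TRAV9D-2 and TRAV9N-2: actcggctgtgtacttcTGTGTTCTGAGCG
TRAV9D-3 and TRAV9N-3: actgggctgtgtacttcTGTGCTGTGAGCA
TRAV9-4: actcggctgtgtacttcTGTGCTGTGAGCG
TRAV9D-4 and TRAV9N-4: actcggctgtgtacttcTGTGCTCTGAGCA
TRAV9-4 has the same end as TRAV9-1, and differs from its own copy TRAV9N-4.

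The family number does not follow sequence likeness throughout. Over the last 280 bases TRAV9-1 matched TRAV9D-1 at 99.3% of positions and TRAV9-2, TRAV9D-3 and TRAV9-4 at 82.9%, 82.5% and 83.2%, so TRAV9-1 stands apart from the other members. TRAV9-4 matched TRAV9N-4, which shares its number, at 96.4% of positions, and matched TRAV9-2 at 97.1%. TRAV9D-2 and TRAV9N-2 were identical over these bases, as were TRAV9D-3 and TRAV9N-3, so reads cannot tell the copies of those pairs apart there. The deposited contigs carried no TRAV9N-2, TRAV9N-3 or TRAV9N-1 label, and TRAV9N-1 is annotated as a pseudogene. TRAV9D-4 lacks 30 bases that TRAV9N-4 has and was otherwise identical to it, and 1 productive contig bore its name.

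Cells with exactly 1 productive TRB and at least 1 productive TRA were kept as paired, and the TRA with most UMIs (unique molecular identifiers, each marking 1 captured transcript) stood for the cell. Of the 633 TRAV9 contigs, 476 were that TRA. Another 28 lay in cells without a productive TRB, 77 in cells with several, and 52 were the weaker alpha of a paired cell, where they had a median of 4 UMIs against 67 for the stronger alpha. The 476 TRAV9 cells were 9.14% of 5207 paired cells (95% exact binomial interval 8.37 to 9.96%). This interval treats cells as independent draws, although cells of a clone are copies, so it is too narrow. A clonotype was a distinct pair of TRA and TRB CDR3 nucleotide sequences in 1 library. TRAV9 made up 277 of 3108 clonotypes, or 8.91% (7.93 to 9.97%), and intervals here cover counting error only. The libraries held 286 to 784 clonotypes and 49997 to 128700 UMIs, the smallest in the meninges. Across the 6 libraries 21 of 7034 distinct barcodes appeared in more than 1 library, and none of those carried the same clonotype in both. By clonotypes TRAV9 was the fifth of 20 TRAV families, after TRAV6 with 446, TRAV7 with 345, TRAV12 with 344 and TRAV14 with 284, and before TRAV13 with 240. Its share averaged 8.79% ± 1.08 of clonotypes (SD, n = 6 libraries).

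The share of clonotypes that used TRAV9 lay close to 9% in 5 libraries. It was 9.51% in 5xFADTg meninges and 6.64% in NonTg meninges, the lowest of the 6. In the parenchyma it was 8.98% and 8.93% in 5xFADTg libraries, against 9.08% and 9.58% in NonTg libraries. The 5xFADTg parenchyma values lay just below the NonTg ones without overlap, by 0.372 percentage points in the means, and the exact permutation test gave p = 0.33, the smallest that 2 against 2 libraries allow. The difference was -0.622 points without NonTg parenchyma 1 and -0.122 without NonTg parenchyma 2. Meninges averaged 8.08% ± 2.03 (SD, n = 2) and parenchyma 9.14% ± 0.297 (SD, n = 4), and the groups overlapped (two-sided exact permutation p = 0.33, with 0.0667 the smallest possible). That test leaves out genotype and treats the libraries as independent, although meninges and parenchyma of a genotype share clonotypes.

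**Figure D1:**
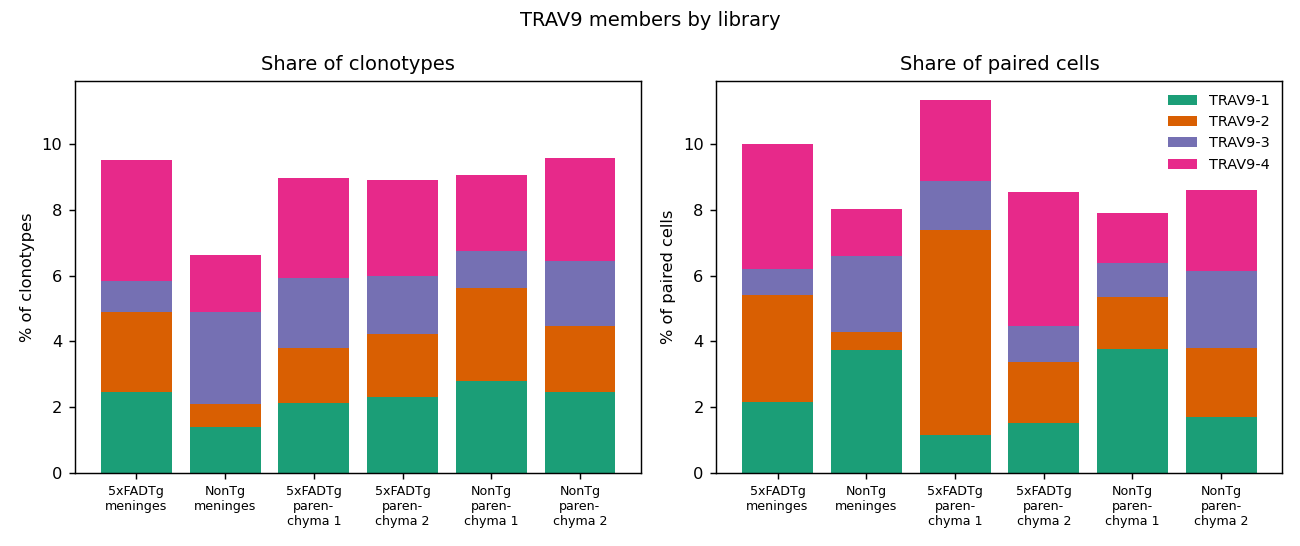
Share of clonotypes (left, in percent) and of paired cells (right, in percent) that used each TRAV9 member, stacked, in each of the 6 libraries. The clonotype total lies between 6.64% and 9.58%, and TRAV9-2 takes 6.22% of the cells of 5xFADTg parenchyma library 1.

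TRAV9-4 was the most used member, with 88 clonotypes (2.83% of all, interval 2.28 to 3.48%). TRAV9-1 followed with 72 (2.32%, 1.82 to 2.91%), TRAV9-2 with 62 (1.99%, 1.53 to 2.55%) and TRAV9-3 with 55 (1.77%, 1.34 to 2.30%). Neighbours in this order had overlapping intervals. The order by cells was different, since TRAV9-2 had 149 cells, TRAV9-4 143, TRAV9-1 110 and TRAV9-3 74.

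TRAV9-1, the member least like the others in sequence, took 2.45% of clonotypes in 5xFADTg meninges and 1.40% in NonTg meninges. In the parenchyma it took 2.13% and 2.30% in 5xFADTg libraries, against 2.81% and 2.45% in NonTg libraries. The parenchyma groups did not overlap. TRAV9-2 took 2.45% in 5xFADTg meninges and 0.699% in NonTg meninges, which is 2 clonotypes of 286. In the parenchyma TRAV9-2 took 1.67% and 1.91% in 5xFADTg libraries, against 2.81% and 2.0% in NonTg libraries, again without overlap. The nearest of these values, 1.91% and 2.0%, were 15 of 784 and 9 of 449 clonotypes. With 2 against 2 libraries, groups often separate by chance, and how many other segments did so is not given here. The lack of overlap for TRAV9-1 and TRAV9-2 is therefore a description only.

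TRAV9-3, which was always labelled TRAV9D-3, took 0.920% in 5xFADTg meninges and 2.80% in NonTg meninges, its lowest and highest values. In the parenchyma TRAV9-3 took 2.13% and 1.79% in 5xFADTg libraries, against 1.16% and 2.0% in NonTg libraries, and the groups overlapped. TRAV9-4 took 3.68% in 5xFADTg meninges and 1.75% in NonTg meninges. In the parenchyma TRAV9-4 took 3.04% and 2.93% in 5xFADTg libraries, against 2.31% and 3.12% in NonTg libraries, with overlap.

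No member passed the test for genotype or for tissue. In edgeR's quasi-likelihood fit over all V and J segments of both chains, 0 of 118 segments (0%) were called between 5xFADTg and NonTg parenchyma at a Benjamini-Hochberg adjusted p under 0.05. Without adjustment 6 had a p under 0.05, and 0 were called by DESeq2. The log2 fold changes of 5xFADTg over NonTg were -0.25 ± 0.25 (SE) for TRAV9-1, -0.44 ± 0.29 for TRAV9-2, 0.35 ± 0.36 for TRAV9-3 and 0.17 ± 0.26 for TRAV9-4, with edgeR adjusted p from 0.933 to 0.949. Between meninges and parenchyma, with genotype as a term, 0 of 120 segments (0%) were called by edgeR and 0 by DESeq2, and 7 had an edgeR p under 0.05 before adjustment. The 4 members had log2 fold changes of meninges over parenchyma of -0.29 ± 0.41, -0.35 ± 0.50, 0.03 ± 0.51 and -0.02 ± 0.35, in the order of their numbers, and edgeR adjusted p of 0.953 to 0.993.

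The copy labels divided the members unevenly. TRAV9-1 was labelled TRAV9-1 in 57 clonotypes and TRAV9D-1 in 15, and TRAV9-2 was labelled TRAV9-2 in 59 and TRAV9D-2 in 3. TRAV9-4 split into 46 clonotypes labelled TRAV9-4 and 42 labelled TRAV9N-4. Of 326 TRAV9 alpha CDR3s, counted once per library, none carried more than 1 V label within a library. Of 16 found in several libraries, 2 bore different labels in different libraries, 1 of them TRAV9-1 and TRAV9D-3 and the other TRAV9-1 and TRAV9D-1. The CDR3 bases can be set beside these labels. All 46 CDR3s labelled TRAV9-4 opened with the first 8 bases of that germline end, and 41 of the 42 labelled TRAV9N-4 opened with those of TRAV9N-4, while none of either set opened with those of the other. The labels were given to contigs that include these bases, so this is no independent check of them. The 8 bases of TRAV9-4 also opened 55 of 57 CDR3s labelled TRAV9-1, 15 of 15 labelled TRAV9D-1 and 50 of 55 labelled TRAV9D-3.

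The 2 copy labels of TRAV9-4 found among clonotypes joined overlapping stretches of the J cluster in different proportions. Of clonotypes labelled TRAV9-4, the segment nearest the J cluster, 39 of 46 (84.8%, 71.1 to 93.7%) joined TRAJ61 to TRAJ31, the part of the cluster nearest the V segments. Of clonotypes labelled TRAV9N-4, 10 of 42 (23.8%, 12.1 to 39.5%) did. TRAV9-4 joined segments from TRAJ58 to TRAJ24 and none beyond, whereas 22 of the 42 TRAV9N-4 clonotypes lay beyond TRAJ24. These copies were picked out after their values were seen, so the difference is given as a description with no test.

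The gap between these copies was present in each library. In 5xFADTg meninges 7 of 7 TRAV9-4 clonotypes and 2 of 5 TRAV9N-4 clonotypes joined TRAJ61 to TRAJ31, and in NonTg meninges 1 of 3 TRAV9-4 and 0 of 2 TRAV9N-4 clonotypes did. In 5xFADTg parenchyma library 1 these were 8 of 9 for TRAV9-4 and 3 of 11 for TRAV9N-4, and in library 2 they were 11 of 12 for TRAV9-4 and 3 of 11 for TRAV9N-4. In NonTg parenchyma library 1 they were 6 of 7 for TRAV9-4 and 2 of 7 for TRAV9N-4, and in library 2 they were 6 of 8 for TRAV9-4 and 0 of 6 for TRAV9N-4. The TRAV9-4 label had the higher share in all 6 libraries, though the meningeal counts are small.

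**Figure D2:**
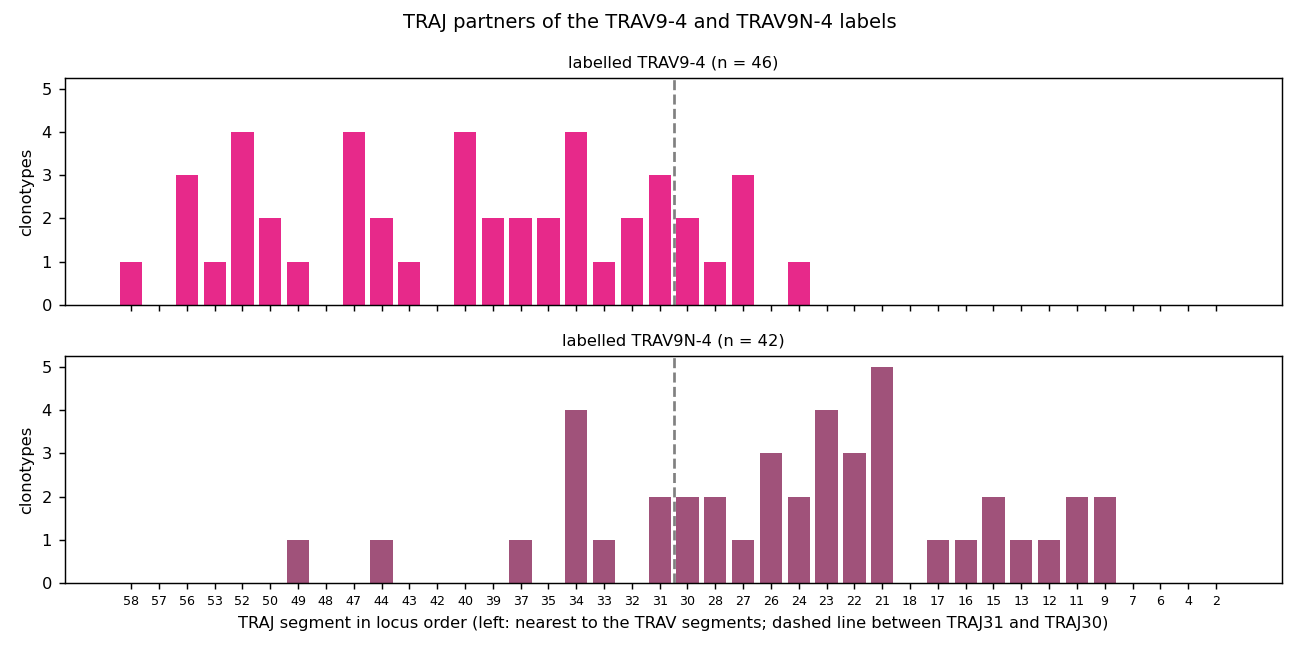
Clonotypes (count, vertical axes) that joined each TRAJ segment (horizontal axis, in locus order, left nearest the V segments), for the labels TRAV9-4 (top, 46 clonotypes) and TRAV9N-4 (bottom, 42 clonotypes), 6 libraries pooled. TRAV9-4 bars end at TRAJ24, and 22 TRAV9N-4 clonotypes lie to the right of it.

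The other copies lay between these values. TRAV9-2, the next segment out from TRAV9-4, joined TRAJ61 to TRAJ31 in 34 of 59 clonotypes (57.6%, 44.1 to 70.4%). TRAV9-1 did so in 19 of 57 (33.3%, 21.4 to 47.1%), TRAV9D-3 in 17 of 55 (30.9%, 19.1 to 44.8%) and TRAV9D-1 in 7 of 15 (46.7%, 21.3 to 73.4%). Contigs labelled TRAV9D-3 may come from TRAV9N-3, so their place along the locus is not settled. The shares were lower step by step outward from TRAV9-4 through TRAV9-2 and TRAV9-1 to TRAV9N-4. TRAV9D-1, the farthest out, was higher again, at 46.7%. The interval of TRAV9-2 overlapped those of TRAV9-1, TRAV9D-3 and TRAV9D-1, and the intervals of the copies beyond TRAV9-2 overlapped each other. By member, with copies pooled, the shares were 36.1% for TRAV9-1, 56.5% for TRAV9-2, 30.9% for TRAV9-3 and 55.7% for TRAV9-4, so pooling hides the split inside TRAV9-4.

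**Figure D3:**
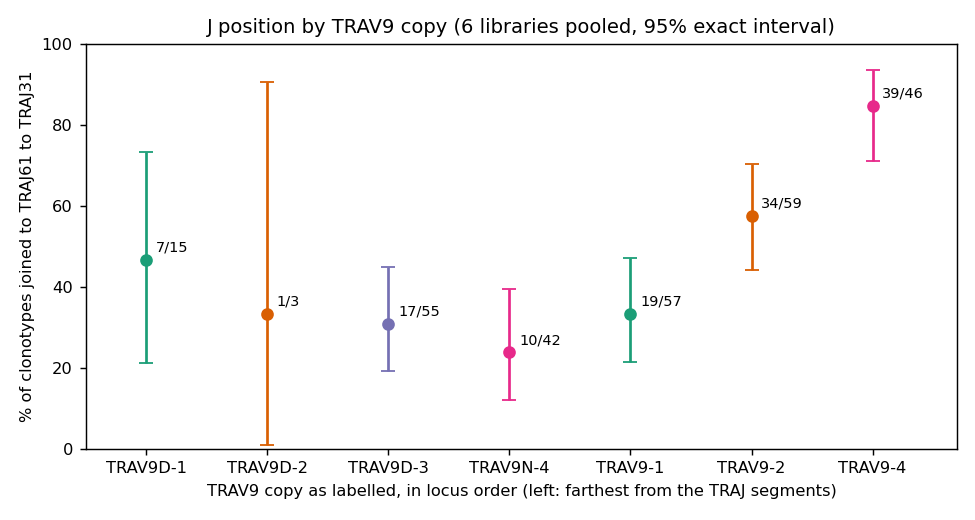
Share of clonotypes joined to TRAJ61 to TRAJ31 (vertical axis, percent) for each copy label, in the order of the segments along the locus with the segment nearest the J cluster at the right. Points are 6 libraries pooled, bars are 95% exact binomial intervals, and the counts stand beside the points. TRAV9-4 has 39 of 46 and TRAV9N-4 has 10 of 42. TRAV9D-2 and TRAV9D-3 stand at the sites of their labels, though their last 280 bases equal those of TRAV9N-2 and TRAV9N-3.

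Over the whole family, J position was near that of other receptors. TRAJ61 to TRAJ31 took 127 of 277 TRAV9 clonotypes (45.8%) and 1297 of 2643 others (49.1%). The others leave out invariant receptors, namely iNKT-like alphas (TRAV11 with TRAJ18) and MAIT-like alphas (TRAV1 with TRAJ33). Within libraries the TRAV9 share was lower in 5 of 6, with a mean difference of -5.66 percentage points (two-sided exact sign-flip p = 0.156, adjusted 0.50). NonTg meninges held 5 of 19 TRAV9 clonotypes in this stretch, at 26.3%, while the other 5 libraries lay between 44.2% and 48.6%. Without that library the mean difference shrank to -1.54 points.

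TRAV9 clonotypes used 40 TRAJ segments. TRAJ31 was the most frequent with 18 of 277 clonotypes, followed by TRAJ40 with 15, TRAJ22 and TRAJ26 with 14 each, and TRAJ15, TRAJ30 and TRAJ34 with 13 each. In the fit of TRAV9 against other clonotypes, 0 of 43 TRAJ segments (0%) had an edgeR adjusted p under 0.05, although 8 did before adjustment. DESeq2 called 0, and 3 before adjustment. TRAJ45 (chr14:54172828-54172890) was absent from the family, at 0 of 277 clonotypes, which allows a share of up to 1.08%, against 51 of 2643 others (1.93%). That is at least 1.78-fold lower, taking 3 counts over the 277 as the floor, with an edgeR adjusted p of 0.140. TRAJ42 (chr14:54175773-54175836) was joined in 1 of 277 TRAV9 clonotypes and 75 of 2643 others, a ratio of 0.127 with a counting interval of 0.00318 to 0.731 and an edgeR adjusted p of 0.140. Over 14 settings TRAJ42 and TRAJ45 passed in 2 each, those with TMM factors and with cells counted in place of clonotypes.

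Segments that were a larger share of TRAV9 clonotypes did not pass either. TRAJ18, the J segment that invariant NKT alphas use with TRAV11, was joined in 10 of 277 TRAV9 clonotypes and 31 of 2643 others (log2 fold change 1.55 ± 0.67, edgeR adjusted p = 0.240). It was 0.54 without NonTg parenchyma 1, 1.18 without NonTg meninges and 0.98 with TMM factors, and -0.88 with the invariant receptors kept among the others. All 10 of these were TRAV9-1. They spread over 4 libraries, with 2 in NonTg meninges, 1 in 5xFADTg parenchyma library 2, 6 in NonTg parenchyma library 1 and 1 in NonTg parenchyma library 2. They held 4 distinct alpha CDR3s, since 5 of the 10 clonotypes, with 18 cells, share 1 alpha of NonTg parenchyma library 1 and NonTg meninges. Another of these alphas was seen in 1 cell each of 5xFADTg parenchyma library 2 and NonTg parenchyma library 1, with a different beta chain in each. TRAJ24 was joined in 8 TRAV9 clonotypes and 23 others (log2 fold change 1.60 ± 0.71, edgeR adjusted p = 0.240).

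The family paired with a broad set of beta chains, using 21 TRBV segments. TRBV16 had 23 of 277 clonotypes, TRBV13-3 had 22, TRBV3 had 21 and TRBV12-2 had 20. The joint label TRBV12-2+TRBV13-2, under which the annotation names both neighbouring segments, had 20. The same receptor could bear the joint label in 1 library and TRBV13-2 in another, so those names are uncertain.

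TRBV13-1 (chr6:41116007-41116468, plus strand) was called lower among the partners of TRAV9 than among those of other alphas. It was found in 5 of 277 TRAV9 clonotypes (1.81%) and 172 of 2643 others (6.51%), a log2 fold change of -1.82 ± 0.55 with an edgeR adjusted p of 0.0269. It was 1 of 21 TRBV segments called (4.76%). By library, TRAV9 clonotypes with TRBV13-1 numbered 0 of 31 in 5xFADTg meninges and 1 of 19 in NonTg meninges, 1 of 59 and 0 of 70 in the 5xFADTg parenchyma libraries, and 3 of 55 and 0 of 43 in the NonTg parenchyma libraries. Others with TRBV13-1 numbered 21 of 257 and 16 of 249 in those meninges, 38 of 567 and 44 of 653 in 5xFADTg parenchyma, and 23 of 529 and 30 of 388 in NonTg parenchyma. The TRAV9 share was the lower one in 5 libraries and the higher one in NonTg parenchyma library 1.

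The TRBV13-1 call rests on few clonotypes. Its direction held in all 15 settings run, and it passed in 8 of them. DESeq2 gave an adjusted p of 0.394 and counting cells gave an edgeR adjusted p of 0.197. Leaving out 1 library gave 0.219 without 5xFADTg parenchyma 1, 0.197 without 5xFADTg parenchyma 2, 0.320 without NonTg parenchyma 2, 0.321 without 5xFADTg meninges and 0.0567 without NonTg meninges, against 0.00460 without NonTg parenchyma 1. Of the other segments, TRBV17 was found in 14 TRAV9 clonotypes and 60 others (log2 fold change 1.16 ± 0.56, edgeR adjusted p = 0.415), TRBV23 in 3 TRAV9 clonotypes and 7 others, and TRBV10 in 8 TRAV9 clonotypes and 122 others (-0.68 ± 0.54, edgeR adjusted p = 0.590).

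**Figure D4:**
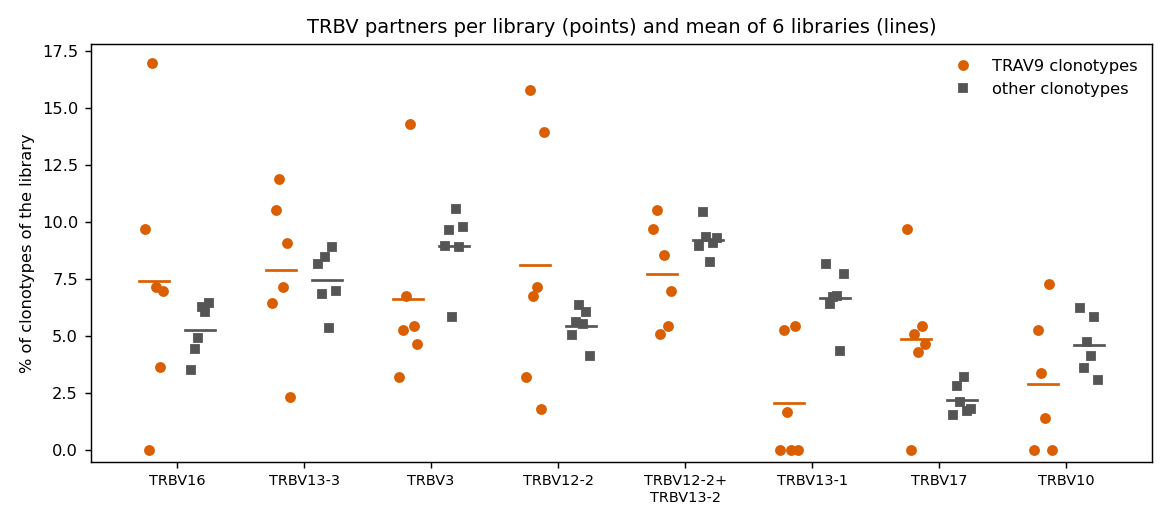
Share of the clonotypes of each library (vertical axis, percent) that used the named TRBV segment, for TRAV9 clonotypes (orange circles) and other clonotypes (grey squares), with 1 point per library and a line at the mean of 6 libraries. TRBV13-1 is at 0 in 3 libraries among TRAV9 clonotypes. The TRAV9 points are shares of 19 to 70 clonotypes and scatter more widely than the grey ones.

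Most junctions kept nearly the whole V end. TRAV9 CDR3s kept a median of 12 of the 13 V bases counted from the cysteine codon, and 117 of 277 kept the whole germline end. A median of 2 bases between V and J could be assigned to neither, and 34 clonotypes (12.3%) had none. Alpha CDR3s averaged 13.6 ± 0.212 amino acids in TRAV9 clonotypes and 13.6 ± 0.0573 in others (SD, n = 6 library means). Beta CDR3s paired with TRAV9 averaged 13.9 ± 0.215 amino acids and those paired with other alphas 14 ± 0.0740, shorter with TRAV9 in 5 of 6 libraries (difference -0.159, two-sided exact sign-flip p = 0.0938, adjusted 0.50). The difference was -0.0995 without NonTg meninges.

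TRAV9 clonotypes were expanded, meaning seen in 2 or more cells, in 46 of 277 cases (16.6%, 12.4 to 21.5%), against 374 of 2643 others (14.2%, 12.8 to 15.5%). By library the TRAV9 share was 12.9% in 5xFADTg meninges and 15.8% in NonTg meninges, 11.9% and 20% in 5xFADTg parenchyma, and 14.5% and 23.3% in NonTg parenchyma. It was above that of other clonotypes in 4 of 6 libraries, with a mean difference of 3.48 percentage points (two-sided exact sign-flip p = 0.188, adjusted 0.50), and 2.25 points without NonTg parenchyma 2. Expanded clonotypes numbered 11 of TRAV9-1, 11 of TRAV9-2, 7 of TRAV9-3 and 17 of TRAV9-4. In the fit of expanded over 1-cell clonotypes 2 of 120 segments (1.67%) were called, TRAV11 and TRAJ18, both fewer among expanded clonotypes, and no TRAV9 member was among them. DESeq2 called 1 of 120 (0.833%), again no TRAV9 member. The members had log2 fold changes of 0.18 ± 0.54 for TRAV9-1, 0.44 ± 0.55 for TRAV9-2, -0.13 ± 0.64 for TRAV9-3 and 0.62 ± 0.45 for TRAV9-4, with edgeR adjusted p from 0.708 to 0.976.

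The 7 TRAV9 clonotypes of 8 or more cells held 140 of the 476 TRAV9 cells (29.4%). Each was found in libraries of 1 genotype, as was every other TRAV9 clonotype. The matching count for clonotypes of other families is not given here, so this is a description only. The alpha CDR3 of the 6 clonotypes with 9 or more cells is shown with capitals for the bases that neither the germline V end nor the J segment supplied.
TRAV9-2/TRAJ31, 64 cells, 5xFADTg parenchyma 1: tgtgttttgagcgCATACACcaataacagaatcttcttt
TRAV9-4/TRAJ56, 28 cells, 5xFADTg parenchyma 2: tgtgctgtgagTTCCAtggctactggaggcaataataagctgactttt
TRAV9D-1/TRAJ31, 11 cells, NonTg parenchyma 1: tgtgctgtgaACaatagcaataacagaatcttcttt
TRAV9-1/TRAJ18, 10 cells, NonTg parenchyma 1: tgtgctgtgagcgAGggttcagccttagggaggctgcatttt
TRAV9-2/TRAJ34, 10 cells, 5xFADTg parenchyma 2: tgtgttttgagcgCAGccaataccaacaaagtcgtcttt
TRAV9D-3/TRAJ22, 9 cells, NonTg parenchyma 2: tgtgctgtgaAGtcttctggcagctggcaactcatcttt
The 64-cell clone has the most unassigned bases of these, 7, and the others have 2 to 5.

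The 64-cell clone was 46.7% of the TRAV9 cells of its library and 5.31% of all its paired cells, second among all clonotypes there. It paired TRAV9-2 with TRBV17 and TRBJ1-1, and its beta chain was seen in 86 cells of that library when all cells with 1 productive TRB were counted, whatever their TRA. The 28-cell clone paired TRAV9-4 with TRBV19 and was 22.6% of the TRAV9 cells of 5xFADTg parenchyma library 2. In the NonTg parenchyma libraries the largest TRAV9 clones, of 11 and 9 cells, held 13.1% and 13.6% of TRAV9 cells. Counted by beta chain as above, the 28-cell clone had 36 cells. On that count the largest clones of NonTg parenchyma libraries 1 and 2 had 18 and 31 cells, so clone sizes depend on the definition. Of the 277 clonotypes, 231 were seen in 1 cell.

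**Figure D5:**
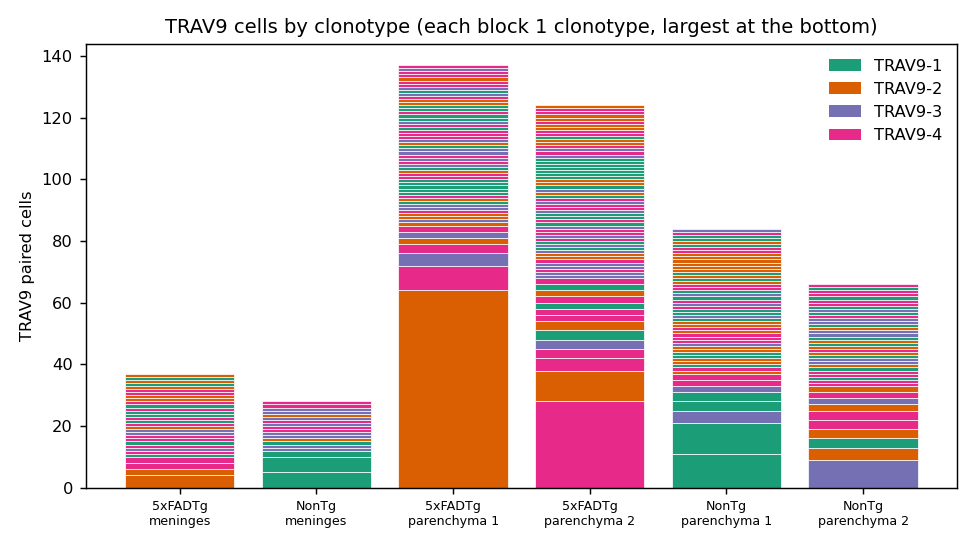
TRAV9 paired cells (vertical axis, count) in each library, with each block 1 clonotype, coloured by member and stacked with the largest at the bottom. The block of 64 TRAV9-2 cells fills the lower part of the bar of 5xFADTg parenchyma library 1.

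The share of paired cells was also computed without the largest clones. With all clonotypes TRAV9 was 10.0% of paired cells in 5xFADTg meninges and 8.02% in NonTg meninges. In the parenchyma it was 11.4% and 8.53% in 5xFADTg libraries, against 7.90% and 8.62% in NonTg libraries, a difference in means of 1.69 percentage points (exact permutation p = 0.667). It was 0.275 points without 5xFADTg parenchyma 1 and 3.10 without 5xFADTg parenchyma 2. Without the largest TRAV9 clonotype of each library the parenchyma shares were 6.39% and 6.74% in 5xFADTg, against 6.94% and 7.53% in NonTg, and the difference turned to -0.670 points (exact permutation p = 0.33).

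Of the TRAV9 clonotypes of the meninges, 4 of 31 in 5xFADTg and 5 of 19 in NonTg were also found in parenchyma of the same genotype. For other clonotypes these were 39 of 257 (15.2%) in 5xFADTg and 61 of 249 (24.5%) in NonTg, inside the TRAV9 intervals of 3.63 to 29.8% and 9.15 to 51.2%. No TRAV9 clonotype was found in both genotypes, and the matching count for other clonotypes is not given here. The shared 5xFADTg receptors included the 64-cell clone, with 4 cells in the meninges, and the 28-cell clone, with 1. The TRAV9D-1/TRAJ31/TRBV14 and TRAV9-1/TRAJ18/TRBV19 clones of NonTg parenchyma library 1 each had 5 cells in NonTg meninges, and were the largest TRAV9 clones there. Another shared NonTg receptor, TRAV9-1/TRAJ18 with a beta named TRBV13-2 or TRBV12-2+TRBV13-2, had 2 cells in the meninges and 3 in the parenchyma.

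Near-identical receptors were rare. Pairs counted if they had the same V and J segments, after dropping copy letters, and at most 1 amino acid difference per CDR3. There were 2 such pairs among 268 distinct TRAV9 clonotypes, against 14 pairs among 2542 others. The sequences of both pairs follow, alpha chain first and then beta chain, with capitals where the members of a pair differ.
TRAV9-2/TRAJ34 alpha, 10 cells, 5xFADTg parenchyma 2: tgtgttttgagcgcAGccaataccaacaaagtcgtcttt
TRAV9-2/TRAJ34 alpha, 3 cells, 5xFADTg parenchyma 2: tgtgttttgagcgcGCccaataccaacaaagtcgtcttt
TRBV29/TRBJ2-1 beta, 10 cells, 5xFADTg parenchyma 2: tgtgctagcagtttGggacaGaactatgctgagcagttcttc
TRBV29/TRBJ2-1 beta, 3 cells, 5xFADTg parenchyma 2: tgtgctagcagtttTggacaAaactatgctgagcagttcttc
TRAV9-2/TRAJ52 alpha, 1 cell, 5xFADTg parenchyma 2: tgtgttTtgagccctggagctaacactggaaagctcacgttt
TRAV9D-2/TRAJ52 alpha, 4 cells, NonTg parenchyma 2: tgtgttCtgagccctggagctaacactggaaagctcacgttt
TRBV12-1/TRBJ2-7 beta, 1 cell, 5xFADTg parenchyma 2: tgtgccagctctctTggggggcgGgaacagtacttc
TRBV12-1/TRBJ2-7 beta, 4 cells, NonTg parenchyma 2: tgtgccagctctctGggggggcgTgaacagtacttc
The first pair were separate clones of 1 library. The second pair encoded the same CDR3 amino acids in both chains from different nucleotides, in libraries of different genotypes. The chains outside the CDR3 were not compared. The 1 alpha base that differed in that pair also differs between the germline ends of TRAV9-2 and TRAV9D-2, in the stretch that the CDR3 holds.

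The same TRAV9 alpha CDR3 was seen with several beta chains for 11 of 255 distinct alphas (4.31%), against 74 of 2449 others (3.02%). Of the 9 TRAV9 clonotypes with 5 or more cells, 4 had their alpha in further cells with another beta, 6 cells in all. The alpha of the 10-cell TRAV9-1/TRAJ18 clone accounted for 3 of the 6, and 2 of those 3 carried TRBV13-1, so 2 of the 5 TRAV9 clonotypes with TRBV13-1 have the alpha of a large clone of the same library. Their UMI counts ranged from 6 to 222, against a median of 51.5 in the clone.

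TRAV9 cells with an additional productive TRA were unevenly spread. They were 8.11% in 5xFADTg meninges and 32.1% in NonTg meninges. In the parenchyma they were 2.92% and 4.84% in 5xFADTg libraries, against 23.8% and 12.1% in NonTg libraries. The parenchyma groups did not overlap (difference in means -14.1 percentage points, exact permutation p = 0.33, the smallest possible). The difference was -8.24 points without NonTg parenchyma 1 and -19.9 without NonTg parenchyma 2. A pair of NonTg clones held much of this, since 7 of 10 TRAV9-1/TRAJ18 cells and 6 of 11 TRAV9D-1/TRAJ31 cells of NonTg parenchyma library 1 had an additional TRA, as did 4 of 5 cells of each in NonTg meninges. Counted over clonotypes, the parenchyma shares averaged 7.68% ± 1.27 in 5xFADTg libraries and 12.8% ± 4.99 in NonTg libraries (SD, n = 2 each, exact permutation p = 0.33). Among other clonotypes this share was 13.9% and 12.7% in the 5xFADTg parenchyma libraries, against 10.96% and 12.6% in the NonTg ones. The TRAV9 clonotype share was lower than that of others in both 5xFADTg libraries, at 6.78% and 8.57%. In NonTg parenchyma it was higher in library 1, at 16.4%, and lower in library 2, at 9.30%. Counted over cells, other cells had an additional TRA in 9.22% ± 0.875 (SD, n = 6 libraries).

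Among other TRAV segments with at least 40 clonotypes, the share of clonotypes per library was most like that of the family for TRAV7-6 (Pearson r = 0.80 over 6 libraries), TRAV13-1 (0.76) and TRAV3-3 (0.55). TRAV7-6, TRAV13-1 and TRAV3-3 each had their lowest share in NonTg meninges, at 1.05%, 2.10% and 3.50%, as TRAV9 did. So did TRAV7-5, TRAV12-2 and TRAV14-1, the next in likeness. These values share libraries and a total, so the correlations are descriptions.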

How the data were processed

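Receptor libraries were made with a 10x Genomics immune profiling kit, per the labels' protocols, and processed with Cell Ranger 6.0 on mm10, per the submitters' processing notes. The deposited contig annotations give V and J names, CDR3 sequences and raw read and UMI counts per contig, and these counts were used as the authors deposited them. The V reference behind the names is not given in the sources used here. Germline sequences and coordinates are from GENCODE M21. Clonotypes were counted per segment and library, segments with at least 10 were kept, and edgeR 4.0.16 quasi-likelihood fits (R 4.3.3, limma 3.58.1) used clonotypes per library as library size, with Benjamini-Hochberg adjustment over all segments of a fit and a threshold of 0.05. DESeq2 1.42.0 was an alternative. Fits were tested on simulated data. Other values were compared by exact permutation or sign-flip tests over libraries (scipy 1.17.1). These tests and the fits treat libraries as independent, although meninges and parenchyma of a genotype share clonotypes. Intervals are 95% exact binomial, and 3 counts set the floor for a count of 0. Named segments were the members and their copy labels, partner segments called, the 5 most used and the 2 of lowest p on either side, the 3 largest clonotypes of a library, and clonotypes found in several libraries; some are given here as counts only. Members, lists and tests were chosen with earlier results of these data known. Alternatives were other scaling, filters, UMI minimum, clonotype definitions, and each library left out.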

Additional observations from a re-analysis of the deposited data

Results flagged for a closer look

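TRAV9-2 took 6.22% of the paired cells of 5xFADTg parenchyma library 1, far above the other 3 parenchyma libraries, with a gap of 0.894 of the whole range of the 4 values (above Dixon's critical value). Of the 75 TRAV9-2 cells of that library, 64 were the 64-cell clone. By clonotypes TRAV9-2 took 1.67% there, the lowest of the 4 parenchyma libraries. Among 14 quantities looked at, the TRAV9-2 share of cells was the 1 with a sample far from the others. Chance flags about 1 in 20 groups.

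The difference of meninges minus parenchyma in the share of clonotypes ran opposite ways in the genotypes, and the difference between genotypes was not tested, as each genotype has 1 meningeal library. For the whole family it was 0.555 percentage points in 5xFADTg and -2.68 in NonTg. For TRAV9-1 the difference was 0.241 in 5xFADTg and -1.23 in NonTg, for TRAV9-2 it was 0.660 in 5xFADTg and -1.71 in NonTg, and for TRAV9-4 it was 0.692 in 5xFADTg and -0.966 in NonTg. TRAV9-3 had -1.04 in 5xFADTg and 1.22 in NonTg. Of the 14 quantities looked at, 5 ran opposite ways. They are the family share and its own parts, so they are not separate results. All use the same NonTg meninges library, whose values rest on 19 TRAV9 clonotypes. The same measure over other segments is not given here.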

How the results depend on the processing

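Of 335 alternatives other than leaving out a library, 292 kept direction and side of the threshold. Calls over all segments stayed at 0 for genotype except with cells counted in place of clonotypes (1). They were 0 for tissue except with a minimum of 2 UMIs (2) and with copies kept apart (1). For expansion DESeq2 gave 1, the 3-cell threshold 1 and TMM factors 3, against 2. TRAJ partners had 2 calls with TMM factors and 3 with cells, against 0. TRBV partners had 0 with DESeq2 and 0 with cells, against 1. The fit with replicate number as a block, in the parenchyma, called 0 segments (6 unadjusted), and it changed no call. The labels do not say that the numbers pair the libraries.

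Directions turned as follows, all in log2 fold change and none past the threshold in either setting. With cells in place of clonotypes, genotype gave 1.13 for TRAV9-2 and -0.37 for TRAV9-3, and tissue gave 0.55 for TRAV9-1 and -0.013 for TRAV9-3. Counting every productive TRA gave -0.26 for TRAV9-3 and 0.091 for TRAV9-4 by tissue. Expansion gave -0.089 for TRAV9-1 with TMM and 0.031 for TRAV9-3 with the 3-cell threshold. TMM gave -0.43, -0.33, -0.18 and -0.24 for TRAJ26, TRAJ30, TRAJ31 and TRAJ34, DESeq2 gave -0.29, -0.28, -0.068 and -0.34, and cells gave -1.01 for TRAJ26, -0.29 for TRAJ30, -0.29 for TRAJ34 and -0.11 for TRAJ40. TRAJ18 was -0.88 with invariant receptors kept among the others, which use it. TRBV13-3 was -0.067 with TMM and -0.19 with cells. The TRAV9 share of cells turned to -0.670 points by genotype and 0.264 by tissue without each library's largest clonotype (chosen after seeing the data), and to 0.261 by tissue with 2 UMIs. In the 4 parenchyma libraries alone TRAV9 minus other was -0.0315 for cells per clonotype and -1.50 for TRA UMIs. Where not stated, the cause was not tested.

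Leaving out each library in turn gave 0 to 1 TRBV call, with TRBV13-1 between -2.90 and -1.40, and 1 to 2 expansion calls (1 without 5xFADTg parenchyma 2). Ranges that crossed 0, in log2 fold change, were -0.044 to 0.74 for TRAV9-3 and -0.063 to 0.37 for TRAV9-4 by genotype. By tissue they were -0.91 to 0.14, -1.78 to 0.44, -1.06 to 0.87 and -0.60 to 0.30 for TRAV9-1 to TRAV9-4, and by expansion -0.28 to 0.56, -0.033 to 1.09 and -0.43 to 0.22 for TRAV9-1 to TRAV9-3. Among partners they were -0.012 to 0.26 for TRAJ26, -0.17 to 0.58 for TRAJ30, -0.62 to 0.52 for TRAJ34 and -0.045 to 0.27 for TRBV13-3. By genotype the expanded share ranged from -7.32 to 1.39 points and CDR3 length from -0.180 to 0.294. By tissue the share of clonotypes ranged from -2.50 to 0.369 points, of cells from -1.08 to 0.897, of TRAJ61 to TRAJ31 from -20.6 to 1.52 and of additional TRA from -2.81 to 21.2, and CDR3 length from -0.155 to 0.0808. TRAV9 minus other ranged from -0.0739 to 0.0917 for cells per clonotype, -0.0581 to 0.0488 for alpha CDR3 length and -3.13 to 0.0413 points for TRBJ1.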
